A study of Mus musculus with 4 samples.

Results

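LSD1 peaks were examined at the 4 Hox gene clusters of C2C12 cells at 2 stages of muscle differentiation. The peaks were chosen by position alone. Every row of the day 2 and day 5 peak lists that overlapped 1 of 4 windows in mm9 coordinates was taken: Hoxa on chromosome 6 from 52090000 to 52230000, Hoxb on chromosome 11 from 96040000 to 96240000, Hoxc on chromosome 15 from 102740000 to 102880000, and Hoxd on chromosome 2 from 74490000 to 74615000. This gave 51 peaks of 61485 in both lists, 33 of 44039 at day 2 and 18 of 17446 at day 5. The windows stand for 38 genes, 10 in Hoxa (Hoxa2 to Hoxa13), 10 in Hoxb (Hoxb1 to Hoxb13), 9 in Hoxc (Hoxc4 to Hoxc13) and 9 in Hoxd (Hoxd1 to Hoxd13). All of the Hox peaks lay in the Hoxa and Hoxc windows. The Hoxb and Hoxd windows held none on either day.

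C2C12 is an established line of mouse myoblasts that leave the cell cycle and fuse into myotubes when serum is lowered. Cells kept in 25 mM glucose and 10% fetal serum were moved to 2% horse serum and collected after 48 h (day 2, called differentiating) or 120 h (day 5, called differentiated), and no other treatment or genotype is named. Each day has an LSD1 precipitate and an input, 1 library each, and only the LSD1 peak lists were analysed. As no group was replicated, differences between days, clusters or ends of a cluster have no replicate spread to be judged by, and none was tested. Intervals are 95% intervals for counting error only, and they treat neighbouring peaks as independent, which they need not be. The read depth behind the peaks is unknown.

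Hox genes encode homeodomain transcription factors that give cells their position along the body axis and the limbs. Within a cluster, genes of low number sit at 1 end and act in anterior tissue, and genes of high number sit at the other end and act in posterior and distal tissue. The clusters arose by duplication, so genes of the same number in different clusters are paralogs. They are classical targets of Polycomb repression and Trithorax activation. LSD1, encoded by Kdm1a, is a demethylase of histone H3 found in complexes with CoREST and histone deacetylases.

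The clusters also carry microRNA genes. In the RefSeq gene order (GRCm38.p6), Mir196b lay between Hoxa9 and Hoxa10, Mir196a-1 between Hoxb13 and Hoxb9, and Mir196a-2 between Hoxc10 and Hoxc9. Genes were ordered by the lowest coordinate listed for each. From the anterior end this put Hoxb4 before Hoxb3 and Hoxd4 before Hoxd3, out of the order of their numbers. Mir10a lay between the lowest coordinates of Hoxb3 and Hoxb4, and Mir10b between those of Hoxd4 and Hoxd1. For Mir10a and Mir10b this order therefore need not name the nearest genes. Mir615, between Hoxc5 and Hoxc4, was also listed, and its products are not shown. For miR-196 and miR-10 the 5p mature sequences are shown. The product miR-196a-5p is encoded both in a cluster with LSD1 peaks and in one without. The seed, bases 2 to 8, is in capitals.
miR-196a-5p: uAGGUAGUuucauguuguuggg
miR-196b-5p: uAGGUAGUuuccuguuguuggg
miR-10a-5p: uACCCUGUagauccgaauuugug
miR-10b-5p: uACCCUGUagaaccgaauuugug
The miR-196a-5p sequence was identical from the Hoxb gene, in a window without a peak, and from the Hoxc gene, in the window with the most peaks. It shared its seed and 21 of 22 bases with miR-196b-5p of the Hoxa window. Both members of the miR-10 pair, which shared 22 of 23 bases, belong to the clusters without a peak. Peaks at the microRNA genes themselves were not looked for, because no mm9 annotation was used here.

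At day 2 the Hoxc window held 20 peaks (Poisson interval 12.2 to 30.9) and the Hoxa window 13 (6.92 to 22.2). At day 5 the Hoxc window held 10 (4.80 to 18.4) and the Hoxa window 8 (3.45 to 15.8). The intervals of the 2 occupied clusters overlapped on both days. Each window was 140 kb long, so day 2 peaks stood at 14.3 per 100 kb in Hoxc and 9.29 per 100 kb in Hoxa, against 2.39 over the whole of chromosome 15 and 1.48 over chromosome 6. At day 5 the densities were 7.14 in Hoxc and 5.71 in Hoxa, against 1.19 and 0.599 on their chromosomes. When the assembled chromosomes were divided into 18834 tiles of 140 kb, assembly gaps included, 0.377% held 20 or more day 2 peaks and 2.59% held 13 or more. At day 5, 0.478% held 10 or more and 1.21% held 8 or more. Both clusters were thus among the more densely occupied stretches of the genome on both days.

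The Hoxb window, 200 kb, and the Hoxd window, 125 kb, had no listed peak at day 2 or day 5. The lists hold only peaks with a score of at least 50, so weaker signal in these windows would not be seen. A tile without a peak was common: 43.9% of 200 kb tiles and 50.8% of 125 kb tiles had none at day 2, and 57.7% and 66.1% had none at day 5. On chromosome 11, which is rich in LSD1 peaks, 29.4% of 200 kb tiles had none at day 2 and 42.0% at day 5. On chromosome 2, 46.2% of 125 kb tiles had none at day 2 and 63.5% at day 5. These tiles also include assembly gaps and were not matched to the windows for gene content. Among tiles of this kind an empty window was therefore not rare.

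**Figure D1:**
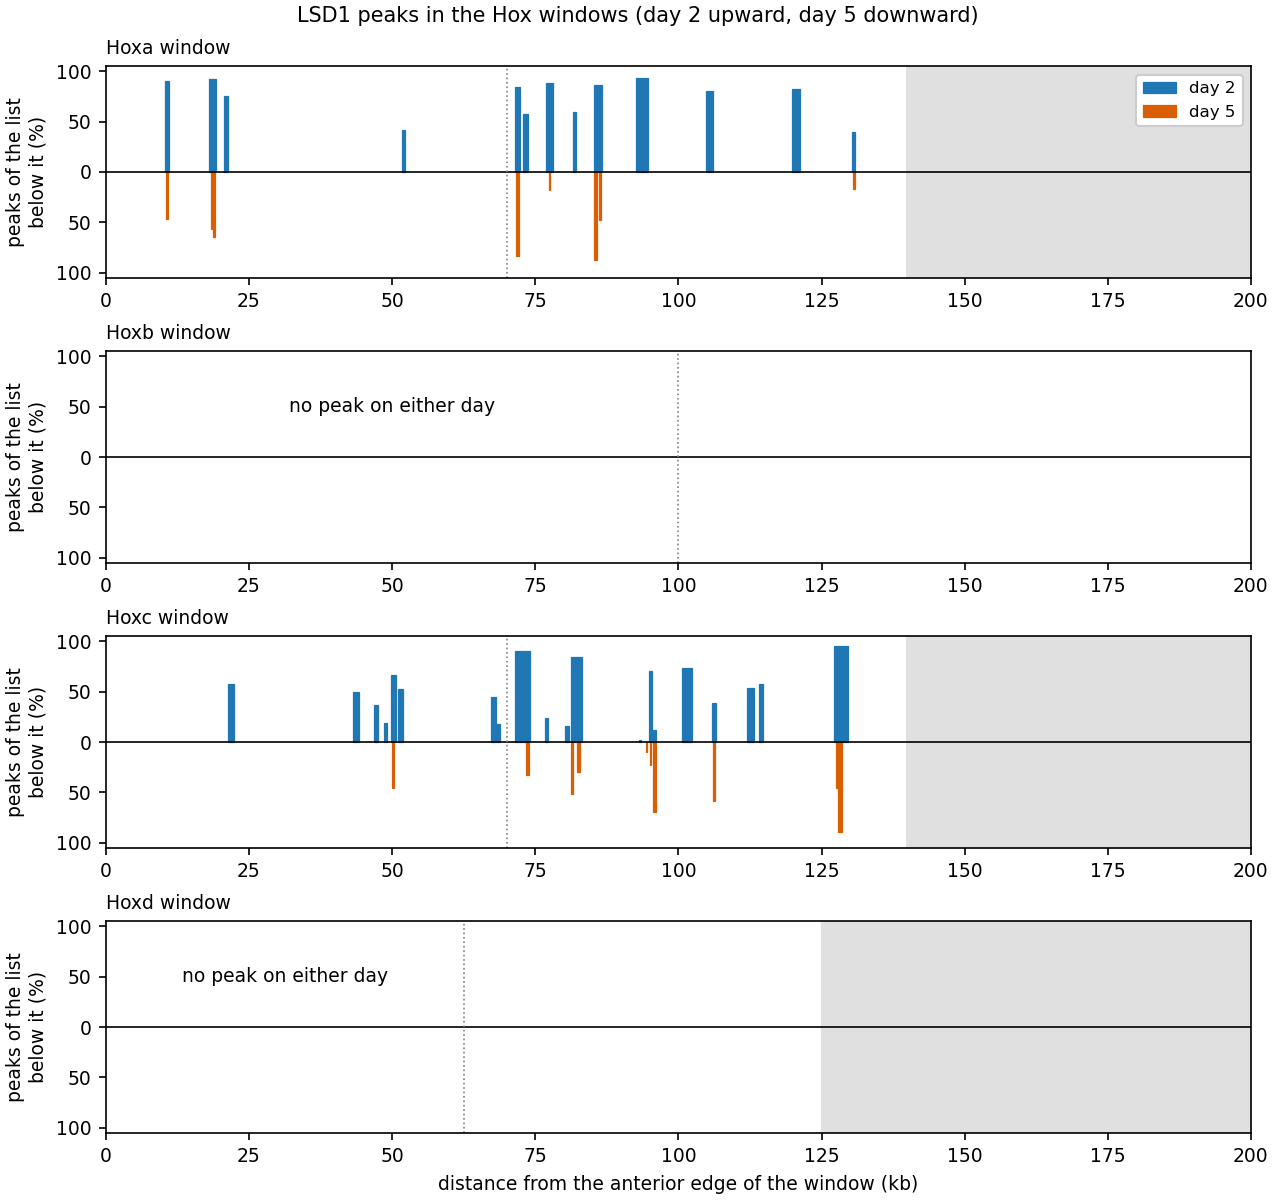
Position and strength of LSD1 peaks in each Hox window. The horizontal axis is the distance in kb from the anterior edge (the end of the low-numbered genes), each bar spans a peak at its true width, its height is the percentage of peaks in its own list placed below it by score, day 2 points upward and day 5 downward, the dotted line is the midpoint and grey lies outside the window. Hoxa and Hoxc carry 13 and 20 day 2 peaks, Hoxb and Hoxd none.

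The empty windows differed in their surroundings. Around Hoxb, a flank of equal length held 7 day 2 peaks on the anterior side and 10 on the posterior side, and 4 and 1 at day 5. The peaks next to the Hoxb window at day 2 ended 37.5 kb beyond the posterior edge (96001929 to 96002528, score 69.0) and began 21.1 kb beyond the anterior edge (96261088 to 96261809, score 130). Hoxb thus lay in a stretch of 259 kb, from 96002529 to 96261087, without a peak of either day, flanked by occupied chromatin. This stretch was the 53rd longest of 3732 between peaks on chromosome 11. Around Hoxd there was 1 day 2 peak in each flank, and 1 anterior and 2 posterior peaks at day 5. The nearest peaks were the same sites on both days. The posterior one spanned 74416146 to 74417384 with a score of 247 at day 2, and 74416783 to 74417209 with a score of 162 at day 5. The anterior one spanned 74663474 to 74664623 with a score of 208 at day 2, and 74663688 to 74664179 with a score of 100 at day 5. The stretch without a peak of either day around Hoxd was 246 kb, from 74417385 to 74663473, the 106th longest of 3573 on chromosome 2. Each stretch had to be at least as long as the empty window it holds, so both ranks follow in part from that choice.

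The occupied windows stood above their flanks, with 1 exception. Hoxa held 13 day 2 peaks where its flanks held 9 (anterior) and 1 (posterior), and 8 day 5 peaks where they held 1 and 0. Hoxc held 20 day 2 peaks where its flanks held 16 (anterior) and 6 (posterior). At day 5 it held 10, and the anterior flank held 12, so Hoxc was not denser than its anterior neighbourhood at that stage. Of the flanks of Hoxa, the anterior one went from 9 peaks at day 2 to 1 at day 5 while the window itself went from 13 to 8. The window thus held 8 of the 9 day 5 peaks and 13 of the 23 day 2 peaks of the window and its flanks.

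**Figure D2:**
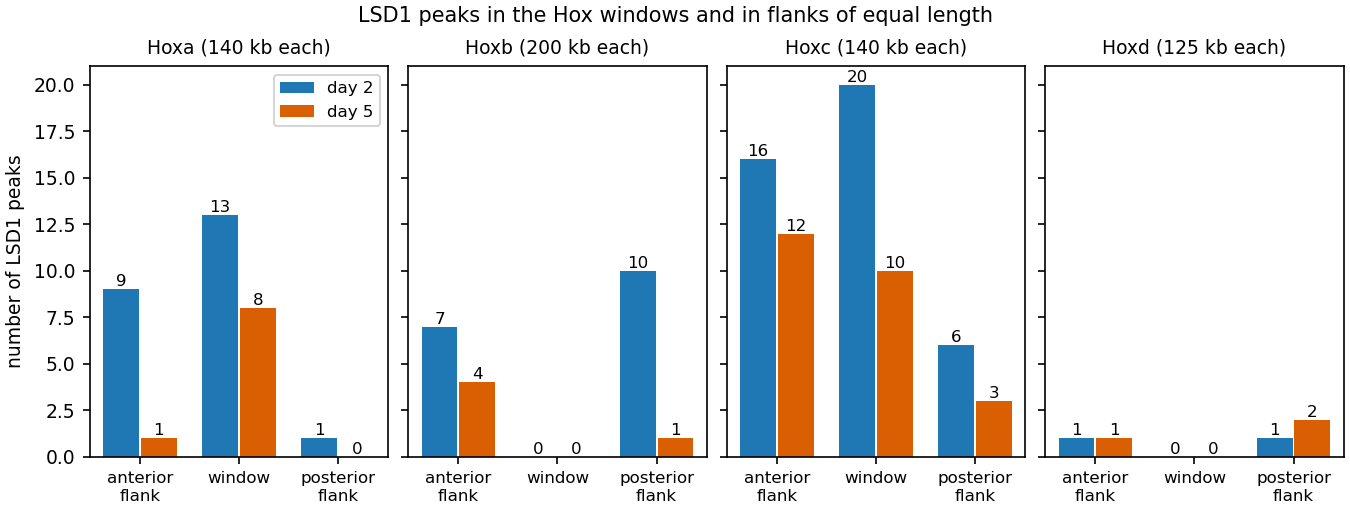
Number of LSD1 peaks in each Hox window and in the flanks of the same length on its anterior and posterior sides, by day, with the counts above the bars. The Hoxb window is empty between flanks of 7 and 10 day 2 peaks, whereas Hoxd lies between flanks of 1 peak each.

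Peaks of the Hoxa window scored high at day 2. The score is the authors' own value for each peak, its scale is not stated, and it is used here only to place a peak within its own list. The 13 Hoxa peaks had a median place at 17.6% from the top of the day 2 list and ran from 6.31% to 60.1%. Of these, 11 were in the upper 50% of the list and 3 in the upper 10%. The 20 Hoxc peaks had a median place at 49.2% and ran from 5.04% to 98.1%, with 10 in the upper 50% and 2 in the upper 10%. Hoxc thus had more peaks, over the whole range of strength, and Hoxa fewer, mostly in the upper part. The order of the clusters turned when weaker day 2 peaks were left out. Above the median score of the list Hoxa held 11 and Hoxc 10, and among the 17446 strongest day 2 peaks, as many as the day 5 list holds, Hoxa held 9 and Hoxc 6. At day 5 the medians were closer, at 47.8% in Hoxa (12.6% to 82.7%) and 54.3% in Hoxc (10.2% to 90.1%), and no peak of either window was in the upper 10%.

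**Figure D3:**
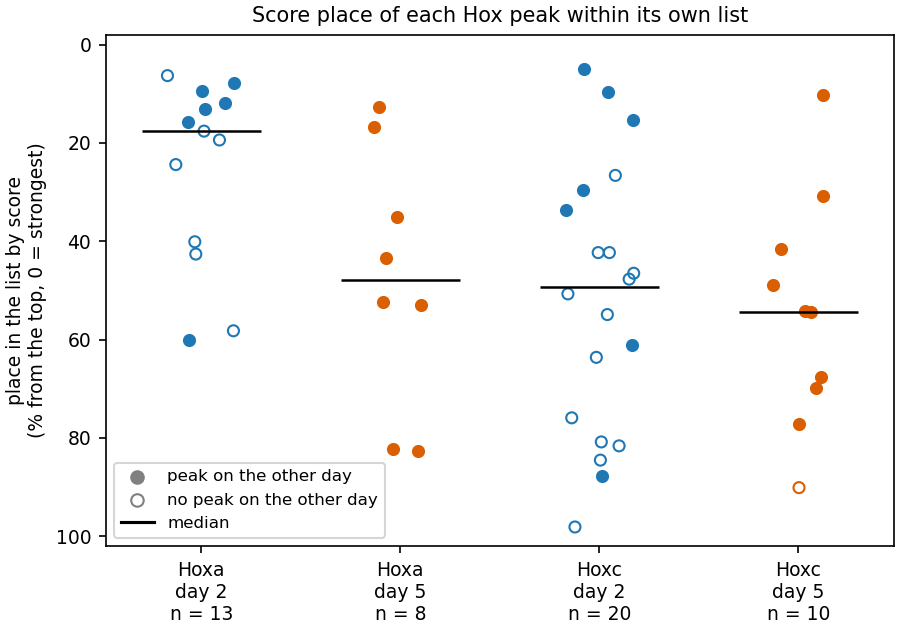
Place of each Hox peak in its own list by score, in percent from the top, for the Hoxa and Hoxc windows at day 2 and day 5. Filled points have a peak on the other day, open points do not, and lines are medians. The strongest Hoxa peak of day 2, at 6.31%, is an open point.

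The strongest day 2 peak of the Hoxa window had no day 5 peak. It spanned 52182597 to 52184614, had a score of 411 (place 2777 of 44039) and, at 2018 bp, was also the widest Hoxa peak. Among day 2 peaks in the upper 10% by score, 85.9% had a day 5 peak. Of the 5 Hox peaks in this upper 10%, the peak of score 411 alone had none. The next strongest, at 52108037 to 52109180 (score 374), held 2 day 5 peaks, at 52108313 to 52108568 (score 78.1) and 52108649 to 52109083 (score 87.8). The peak at 52100333 to 52101102 (score 340) held 1, at 52100540 to 52100925 (score 70.7). The peak at 52175193 to 52176723 (score 284) also held 2, at 52175286 to 52175748 and 52176198 to 52176485. The first of these had a score of 141 and was the strongest Hoxa peak of day 5, and the second had a score of 70.9. In the middle of the window the peak at 52161405 to 52162413 (score 256, place at 15.8%) held the widest day 5 peak, 552 bp at 52161659 to 52162210, with a score of 124 and a place at 16.7%. The peak at 52166843 to 52168136 had a higher score than that one at day 2 (301, place at 11.9%), and its day 5 peak, at 52167430 to 52167650, a lower one (54.7, place at 82.3%). Places come from lists of different length, so a place at day 2 and one at day 5 do not show by themselves that a site gained or lost LSD1.

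Day 5 peaks in Hoxa did not follow the day 2 score alone. The lowest-scoring day 2 peak, at 52220344 to 52220935 near the posterior edge (score 87.0, 592 bp), had a day 5 peak at 52220529 to 52220784 (score 54.6). Several stronger ones had none, among them the peak of score 411, that at 52209899 to 52211233 (score 240) and that at 52194913 to 52196086 (score 226). The 3 named lay next to each other on the posterior side, so no day 5 peak was listed between 52176485 and 52220529. The longest stretch without a peak inside the window was 30377 bp at day 2 (52111421 to 52141797) and 52575 bp at day 5 (52109084 to 52161658), both wholly or mostly on the anterior side.

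In the Hoxc window the strongest site was the same on both days and lay near the posterior edge. It spanned 102750457 to 102752790 at day 2, 2334 bp wide, with a score of 449 (place 2221 of 44039, 5.04% from the top). At day 5 it held 2 peaks, the stronger at 102751497 to 102752160, 664 bp wide and with a score of 154 (10.2% from the top), and a weaker one at 102752205 to 102752420 with a score of 69.5. The widest Hoxc peak of day 2, 2586 bp at 102805947 to 102808532 (score 338), held 1 day 5 peak at 102806055 to 102806624 (score 61.2). The peak at 102796883 to 102798763 (score 259) met 2, at 102797249 to 102797658 (score 60.0) and at 102798479 to 102798803 (score 73.2). The second of these was the only 1 of 17 overlapping pairs in which the day 5 peak ran past the edge of the day 2 peak.

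Neighbouring Hoxc peaks stood in a different order in each list. The day 2 peak at 102783873 to 102784515 had a score of 57.4 and a place at 87.8%, near the bottom of its list. Its day 5 peak at 102783988 to 102784382 had a score of 93.4 and a place at 30.7%, second in the window. The adjoining day 2 peak at 102784610 to 102785214 was stronger, with a score of 166 (29.6%), and its day 5 peak at 102784756 to 102785024 was weaker, with a score of 57.1 (77.1%). The sole Hox peak of day 5 without a day 2 peak, at 102785450 to 102785692 (score 52.5, 243 bp), stood 235 bp from that same day 2 peak. The highest-scoring Hoxc peak of day 2 without a day 5 peak spanned 102777634 to 102779283 (score 180, 1650 bp). The longest stretch without a peak inside the window was 20797 bp at day 2 (102836876 to 102857672) and 22971 bp at day 5 (102806625 to 102829595).

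Over both occupied windows, 13 of 33 day 2 peaks shared at least 1 bp with a day 5 peak, which is 39.4% (Wilson interval 24.7 to 56.3), against 30.4% of the whole day 2 list. The interval holds the list's value. By cluster it was 6 of 13 in Hoxa (46.2%, 23.2 to 70.9) and 7 of 20 in Hoxc (35.0%, 18.1 to 56.7). When each Hox peak was given the share seen in its own 10% step of the day 2 list by score, the expected number was 6.86 in Hoxa and 5.60 in Hoxc, 12.5 together, close to the 13 observed. From day 5, 17 of 18 peaks met a day 2 peak, which is 94.4% (74.2 to 99.0), against 86.1% of the day 5 list. The ratio of day 2 to day 5 peak number was 1.62 in Hoxa and 2.00 in Hoxc, and 2.52 over the whole lists. Bases under peaks went from 13701 to 2857 in Hoxa, a ratio of 4.80, and from 20580 to 3969 in Hoxc, a ratio of 5.19, beside 5.21 over the whole lists. The ratios of covered bases lay close to that of the whole lists, whereas the ratio of peak number in Hoxa was lower, on 13 and 8 peaks. The ratio in Hoxc turned at equal list lengths, with 6 day 2 and 10 day 5 peaks.

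Some day 2 peaks met more than 1 day 5 peak. Of the 33 Hox peaks of day 2, 4 met 2 day 5 peaks, 2 in each window, where 3.44% of the day 2 list met 2 or more and the score-matched number was 1.67. They were 1144 and 1531 bp wide in Hoxa and 1881 and 2334 bp wide in Hoxc. Peaks of at least 2000 bp numbered 3 of 33, against 1.51% of the list at day 2, and they were the peaks of 2018 bp in Hoxa, which met 0 day 5 peaks, and of 2334 and 2586 bp in Hoxc, which met 2 and 1. At day 5 there were 0 of 18, against 0.0172% of the list. The 3 wide peaks of day 2 were all in the upper 10% of the list by score. The list's share of such wide peaks was not matched for score. At day 2 the median width was 1009 bp in Hoxa (539 to 2018) and 814 bp in Hoxc (453 to 2586), against 663 bp over the list. Of the 20 Hoxc peaks, 18 were wider than the median peak of their score step, compared with 7 of 13 in Hoxa. At day 5 the median was 337 bp in Hoxa (221 to 552) and 402 bp in Hoxc (216 to 664), against 331 bp over the list. In overlapping pairs the day 2 peak was wider by a median ratio of 2.97 in Hoxa (8 pairs) and 3.52 in Hoxc (9 pairs), beside 2.59 over 15073 pairs.

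**Figure D4:**
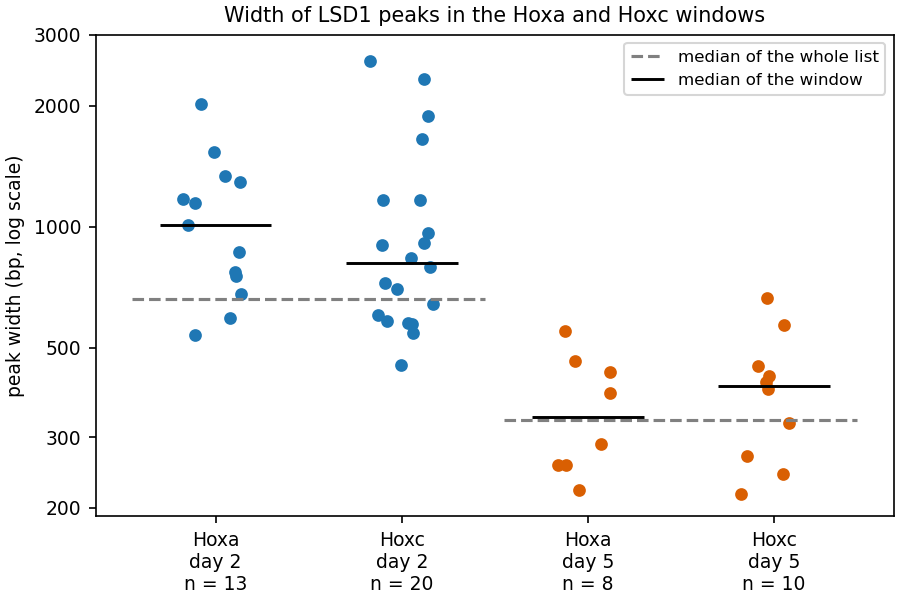
Width of each LSD1 peak in the Hoxa and Hoxc windows, in bp on a log axis, by day. Solid lines are window medians (1009 and 814 bp at day 2, 337 and 402 bp at day 5) and dashed lines are the medians of the whole lists (663 and 331 bp).

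Within each occupied cluster, more peaks lay on the posterior side, the end of the high-numbered genes such as Hoxa10, Hoxa11 and Hoxa13, which act in the limb. Windows were split at their midpoint, and the order of genes was taken from the RefSeq table of GRCm38.p6, since no mm9 annotation was used. Which genes lie on each side of the midpoint in mm9 was therefore not established. In Hoxa, 9 day 2 peaks were posterior (Poisson interval 4.12 to 17.1) and 4 anterior (1.09 to 10.2), and at day 5 there were 5 and 3. In Hoxc, 12 day 2 peaks were posterior (6.20 to 21.0) and 8 anterior (3.45 to 15.8). At day 5, 9 were posterior (4.12 to 17.1) and 1 was anterior (0.0253 to 5.57). As a share of the window's peaks, the posterior side took 69.2% (Wilson interval 42.4 to 87.3) in Hoxa and 60.0% (38.7 to 78.1) in Hoxc at day 2. At day 5 it took 62.5% (30.6 to 86.3) in Hoxa and 90.0% (59.6 to 98.2) in Hoxc. An even division lay inside the interval in the first 3 cases and outside it in Hoxc at day 5, by counting error alone. When the window was cut into 3 equal parts and the outer ones were compared in Hoxa, the day 5 direction turned, with 25.0% of peaks posterior in place of 62.5%.

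The posterior side had more bases under peaks, which follows in part from its larger number of peaks. Bases under day 2 peaks came to 10495 on the posterior and 3206 on the anterior side of Hoxa, and to 14005 and 6575 in Hoxc. At day 5 they came to 1780 and 1077 in Hoxa, and to 3543 and 426 in Hoxc. Day 2 peaks of 1 kb or more numbered 6 posterior and 1 anterior in Hoxa and 5 posterior and 1 anterior in Hoxc. The median width was not larger on the posterior side throughout. At day 2 it was 1174 bp posterior and 762 bp anterior in Hoxa, but 766 and 848 bp in Hoxc. At day 5 it was 288 and 386 bp in Hoxa, and 395 and 426 bp in Hoxc. In score the sides were alike in Hoxa at day 2, with median places at 17.6% (posterior) and 16.9% (anterior). In Hoxc they were 44.4% and 52.8%, and the best anterior score was 150 where the posterior one was 449.

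In Hoxc the 2 sides differed most in what was listed at day 5. Of the 12 posterior day 2 peaks, 6 had a day 5 peak (Wilson interval of the share 25.4 to 74.6%), and of the 8 anterior ones 1 had (12.5%, 2.24 to 47.1). The intervals overlapped. The anterior site that remained spanned 102829254 to 102830218 at day 2, with the highest score on that side (150), and its day 5 peak spanned 102829596 to 102830021 with a score of 69.3. The part of the Hoxc window next to its anterior edge had few peaks, with the first at 21.4 kb from the edge at day 2 and at 50 kb at day 5. In Hoxa the shares were alike, with 4 of 9 posterior (44.4%) and 2 of 4 anterior.

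The base composition of the listed promoters overlapped between the occupied Hoxa and the empty Hoxd cluster. Promoter windows of 300 bases, from 250 before to 50 after a gene's start, were listed by RefSeq (GRCm38.p6) for 22 of the 38 genes, 24 windows in all. CpG dinucleotides, counted as observed over expected from the C and G content, had a median of 0.722 in Hoxa (10 windows, 0.280 to 1.02) and 0.664 in Hoxd (10 windows, 0.257 to 0.920). Both lay above the median of 0.384 over 32841 promoters. Windows with over 50% G and C and a ratio above 0.6 numbered 6 of 10 in Hoxa and 5 of 10 in Hoxd, against 33.3% of all promoters. Hoxb had 3 windows (0.380 to 0.970) and Hoxc 1 (0.333, for Hoxc4), too few to describe a cluster. Whether a promoter lies under a peak was not established, since the promoters and the peaks are on different builds.

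**Figure D5:**
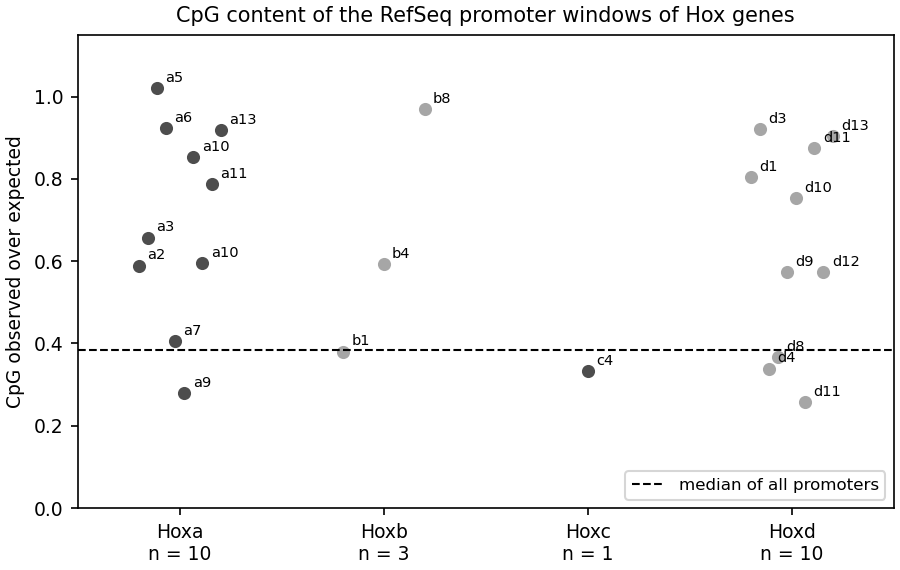
CpG observed over expected in the RefSeq promoter windows of Hox genes, by cluster, with the gene's letter and number beside each point; dark points are clusters with LSD1 peaks and light points clusters without. The dashed line is the median of all promoters, 0.384, and most points of Hoxa and Hoxd lie above it.

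Paralogous promoters from a cluster with peaks and from one without are shown to compare their CpG content, as the 250 bases before the start with CpG in capitals. They are Hoxa9 (chr6:52227371-52227620 on the minus strand) and Hoxd9 (chr2:74697513-74697762 on the plus strand), Hoxc4 (chr15:103034145-103034394 on the plus strand) and Hoxb4 (chr11:96318017-96318266 on the plus strand), and Hoxa13 (chr6:52260881-52261130 on the minus strand) and Hoxd13 (chr2:74667975-74668224 on the plus strand), all in GRCm38.p6, whose positions cannot be set beside the mm9 positions of the peaks.
Hoxa9: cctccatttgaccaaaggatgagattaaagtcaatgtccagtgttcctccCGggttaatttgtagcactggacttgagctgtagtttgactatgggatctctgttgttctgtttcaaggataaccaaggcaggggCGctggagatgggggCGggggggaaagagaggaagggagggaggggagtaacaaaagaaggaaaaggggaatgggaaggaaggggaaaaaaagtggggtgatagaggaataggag
Hoxd9: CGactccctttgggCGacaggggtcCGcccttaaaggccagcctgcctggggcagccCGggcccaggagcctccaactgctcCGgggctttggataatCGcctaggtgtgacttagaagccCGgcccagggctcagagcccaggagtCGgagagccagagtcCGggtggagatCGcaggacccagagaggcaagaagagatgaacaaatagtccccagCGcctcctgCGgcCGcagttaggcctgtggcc
Hoxc4: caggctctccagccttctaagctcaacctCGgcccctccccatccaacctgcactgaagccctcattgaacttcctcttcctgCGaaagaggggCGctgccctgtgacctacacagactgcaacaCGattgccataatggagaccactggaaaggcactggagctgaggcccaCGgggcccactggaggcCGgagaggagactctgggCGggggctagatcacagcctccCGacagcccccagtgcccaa
Hoxb4: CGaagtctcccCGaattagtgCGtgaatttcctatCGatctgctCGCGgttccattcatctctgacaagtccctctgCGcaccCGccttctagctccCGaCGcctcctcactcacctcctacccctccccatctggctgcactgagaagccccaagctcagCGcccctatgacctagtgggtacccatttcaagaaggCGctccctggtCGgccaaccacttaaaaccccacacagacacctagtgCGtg
Hoxa13: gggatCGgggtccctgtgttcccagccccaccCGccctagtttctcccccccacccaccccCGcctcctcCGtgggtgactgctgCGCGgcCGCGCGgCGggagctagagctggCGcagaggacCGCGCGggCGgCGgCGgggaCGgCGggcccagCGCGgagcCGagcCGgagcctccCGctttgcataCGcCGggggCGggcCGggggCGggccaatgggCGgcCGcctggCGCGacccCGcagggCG
Hoxd13: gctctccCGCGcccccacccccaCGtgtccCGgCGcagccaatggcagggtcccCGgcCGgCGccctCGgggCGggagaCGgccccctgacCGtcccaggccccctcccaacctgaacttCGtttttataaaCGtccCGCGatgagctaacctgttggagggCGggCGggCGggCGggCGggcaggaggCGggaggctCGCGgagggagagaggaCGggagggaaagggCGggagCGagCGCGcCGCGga
The Hoxa9 stretch held 3 CpG and its paralog Hoxd9, in the cluster without peaks, 13. Hoxc4 held 8 and Hoxb4 14. At the posterior end the order of the counts was the other way, with 35 in Hoxa13 and 31 in Hoxd13. Hoxa13 and Hoxd13, which act together in the digits, were the most G and C rich of the listed promoters of their clusters, at 81.0% and 74.3% of the full windows. As observed over expected, the same stretches were higher in the cluster without peaks in each pair. The ratios were 0.266 in Hoxa9 and 0.490 in Hoxd9, 0.340 in Hoxc4 and 0.760 in Hoxb4, and 0.875 in Hoxa13 and 0.901 in Hoxd13. In the full windows of 300 bases the last pair turned, with 0.918 in Hoxa13 and 0.904 in Hoxd13. These few promoters do not describe their clusters. Over all listed windows the values of Hoxa and Hoxd overlapped, and the median was higher in Hoxa (0.722) than in Hoxd (0.664).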

How the data were processed

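LSD1 ChIP-seq of C2C12 cells at day 2 and day 5 was analysed from 1 peak list per library. Per the file headers, the authors called peaks with MACS in Galaxy. Bowtie2, deepTools and mm9 are named in the submitters' processing notes. The MACS version, its cutoff and any use of inputs were not given in the sources used here. Each deposited score is the authors' value for 1 peak, of unstated scale. Scores ran from 50 to 3100 at day 2 and from 50 to 2608 at day 5. Starts are printed counted from 1. Groups came from the sample titles. The windows, genes and measures were chosen with earlier results of these data known. Peaks were taken if they overlapped a window, and were put into sides, flanks and tiles by midpoint. Peaks described singly were, per window and day, the strongest, the widest, those without a peak on the other day (at day 2 the strongest of these), those meeting 2 day 5 peaks and the edges of the longest peak-free stretch. Others were chosen after their values were seen. Overlap and window counts were checked on simulated lists. Shares have Wilson and counts exact Poisson intervals. Alternatives covered score limit, merging, overlap rule, list length, window edges, sides and flanks. All 38 genes were found in the RefSeq table, and no coordinates were converted. Tools were SciPy 1.17.1, Matplotlib 3.10.9, pandas 2.3.3 and NumPy 2.4.6 under Python 3.11.15.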

Additional observations from a re-analysis of the deposited data

How the results depend on the processing

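The 34 values were recomputed under 148 alternatives. In 122 a count or length stayed within 1.5 times, or another value within its interval, 25 moved and 1 turned its direction. Many of the 122 were counts and lengths of the empty Hoxb and Hoxd windows, which went from 0 to 0. The tally therefore overstates how stable the other values were. The Hoxb and Hoxd windows stayed at 0 peaks in all alternatives run for them. Only windows widened by 10% at each end could have gained a peak, and the nearest peaks lay beyond the widened edges. The other alternatives could not add a peak to an empty window, so these values do not measure stability. Keeping peaks at or above their list's median score left 10 Hoxc and 11 Hoxa peaks at day 2 and 4 of each at day 5, with 13575 and 1835 bp covered in Hoxc and 1706 bp in Hoxa at day 5. It put 23.8% of day 2 Hox peaks with a day 5 peak and 100% of Hoxc day 5 peaks on the posterior side. Merging peaks less than 1 kb apart left 13 and 6 Hoxc peaks and median Hox widths of 1294 and 561 bp. At equal list lengths Hoxc kept 6 day 2 peaks over 10021 bp, 83.3% of them posterior, fewer than the 9 of Hoxa and than its own 10 at day 5, and 66.7% of day 2 Hox peaks were shared. When 50% of each peak had to overlap, 12.1% (day 2) and 22.2% (day 5) of Hox peaks were shared, and a gap of up to 1 kb gave 100% at day 5. Comparing the outer ones of 3 equal parts, the posterior percentage was 25.0% in Hoxa and 100% in Hoxc at day 5. Flanks 1 window length away held 3 day 2 and 0 day 5 peaks at Hoxa, 11 and 8 at Hoxb, and 1 day 5 peak at Hoxd. Fewer or longer peaks follow from the construction of the limits, merging and list lengths, and for the other moves the cause was not tested. No paired analysis was possible because each group had 1 library, which also left no replicate to leave out. Peak number and width depend on read depth and caller settings, which are unknown here, so day and depth cannot be told apart.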
